A study of Mus musculus with 2 samples.

Results

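The genes of miR-193 and miR-365 were followed in mouse gastrocnemius, the large muscle of the calf. They form a pair of paralogous clusters, Mir193b with Mir365-1 and Mir193a with Mir365-2. They were chosen by their GENCODE M21 symbols and Ensembl gene identifiers, without use of their counts, and all 4 were present among the 2202 microRNA genes counted. The series holds 2 libraries of 1 group, called biological replicates 1 and 2, made from RNA inserts under 30 nt. Both came from male mice of 2 months of the hybrid strain B6CASTF1/J, in which a C57BL/6J genome is paired with that of the wild-derived CAST/EiJ. The labels number the libraries as separate biological replicates. No treatment and no allele beyond the strain background is given, so the data show levels and their spread, with no contrast between conditions.

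A microRNA gene is transcribed as a long precursor, cut to a hairpin and then to a short duplex, of which either arm (5p or 3p) can be loaded into an Argonaute protein. Bases 2 to 8 of the loaded strand, the seed, pair with target messenger RNAs and lower their output. In mice, miR-193b and miR-365 are known from brown fat. Loss of function in cultured brown preadipocytes impaired their differentiation, and forced expression of miR-193b in myoblasts blocked muscle differentiation and favoured brown adipocyte genes, whereas mice lacking Mir193b and Mir365-1 were reported to form brown fat. Members of the miR-193 family are also known as growth suppressors that act on cyclin D1 and MCL1 in human cells.

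The sequences of the arms are shown first because they decide which reads can be given to a gene. All 4 genes matched RefSeq entries on GRCm38.p6, the assembly also called mm10, and their hairpins were identical to the GENCODE M21 transcripts. Capitals mark the seed.
miR-193b-3p: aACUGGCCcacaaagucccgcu
miR-193a-3p: aACUGGCCuacaaagucccagu
miR-193b-5p: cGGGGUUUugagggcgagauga
miR-193a-5p: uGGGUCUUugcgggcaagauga
miR-365-3p: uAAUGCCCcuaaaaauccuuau
miR-365-1-5p: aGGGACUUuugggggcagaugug
miR-365-2-5p: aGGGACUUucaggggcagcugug

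The miR-193 paralogs had the same seed on the 3p arm and different sequences beyond it. The 3p arms were identical at 19 of 22 bases and differed by U9C, A20G and G21C, written as the base of miR-193a-3p, the position counted from 1 at the 5′ end, and the base of miR-193b-3p. No further mature microRNA of the RefSeq table had that seed. Their 5p arms were identical at 17 of 22 bases and did not share a seed. The miR-365 paralogs had the same 3p arm at 22 of 22 bases and 5p arms identical at 20 of 23 bases, with U10C, G11A and A19C between miR-365-1-5p and miR-365-2-5p and the seed in common. The seed of miR-365-3p was found on no other mature microRNA of the table.

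The hairpins differ in how much of them can be assigned to 1 gene. They are printed with the longest run of bases shared by the paralogs in capitals.
Mir365-2: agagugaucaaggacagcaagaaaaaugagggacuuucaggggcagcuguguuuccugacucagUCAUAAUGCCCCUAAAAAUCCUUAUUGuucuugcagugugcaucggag
Mir365-1: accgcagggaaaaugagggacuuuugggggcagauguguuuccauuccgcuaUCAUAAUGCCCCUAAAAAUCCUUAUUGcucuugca
Mir193b: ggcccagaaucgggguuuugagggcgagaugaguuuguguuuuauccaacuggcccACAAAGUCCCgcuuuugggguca
Mir193a: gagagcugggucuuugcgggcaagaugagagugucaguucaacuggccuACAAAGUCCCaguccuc

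In the miR-365 hairpins the shared run was 27 bases long and held the whole 3p arm. Reads that lie within it match both genes, and the deposited gene counts leave out reads that match several places. Of all windows of 22 bases, 6 of 91 in Mir365-2 and 6 of 66 in Mir365-1 occurred in the other copy. In the miR-193 hairpins the shared run was 10 bases long, and none of the 58 windows of Mir193b and none of the 45 windows of Mir193a occurred in another counted microRNA gene. Among all 2202 genes, 46.3% had at least 1 window of 22 bases in common with a gene at another position. The counts of Mir365-2 and Mir365-1 are therefore read as uncertain and hold no measure of miR-365-3p, while those of Mir193b and Mir193a can come from either arm. No arm of the 4 genes was found in a GENCODE M21 transcript of any other gene, and copies elsewhere in the genome were not analysed here.

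Both clusters lie outside annotated exons of other genes. On mm10, Mir193b (ENSMUSG00000076972.2) is at chr16:13449523-13449601 and Mir365-1 (ENSMUSG00000065449.1) at chr16:13453840-13453926, both on the plus strand, with 4317 bases from start to start. Both lie within an intron of Gm15738, an antisense RNA gene on the minus strand, and beyond the coding gene Mrtfb, an actin-regulated coactivator of serum response factor, whose end is 31994 bases before Mir193b. Mir193a (ENSMUSG00000065395.1) is at chr11:79711969-79712034 and Mir365-2 (ENSMUSG00000065489.1) at chr11:79726400-79726511, also on the plus strand, with 14431 bases from start to start. They overlap no other annotated gene, and the nearest is the long non-coding RNA Gm11205, which ends 6549 bases before Mir193a. The neighbouring Mir6365, on the other strand and 17154 bases beyond Mir365-1, had 0 counts in both libraries.

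**Figure D1:**
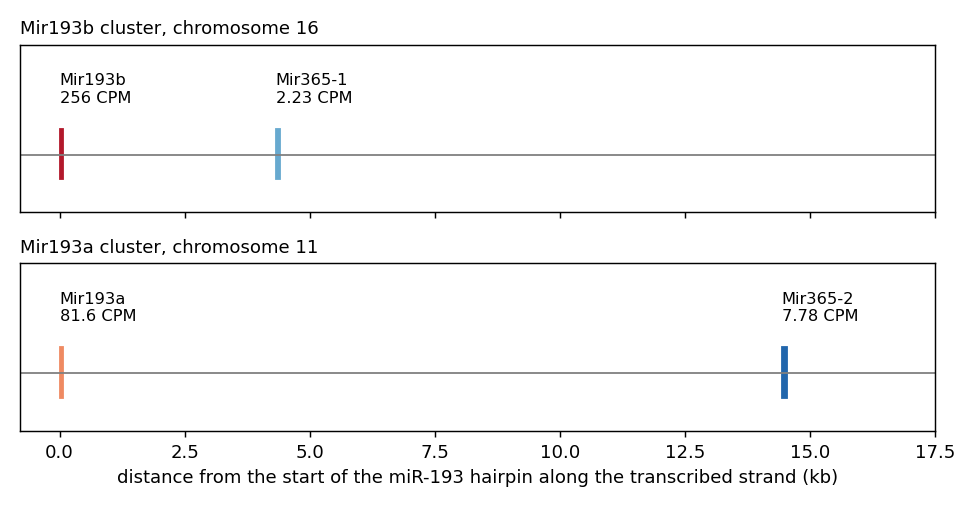
The clusters drawn to scale, with distance in kb from the start of the miR-193 hairpin along the transcribed strand and each hairpin as a coloured bar with its mean CPM over 2 libraries. Mir365-1 lies 4317 bases from Mir193b, and Mir365-2 lies 14431 bases from Mir193a.

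The total over microRNA genes was 638779 counts in replicate 1 and 2272132 in replicate 2, so values of replicate 2 carry the smaller counting error. Reads matching several places, 75.2% and 74.4% of all reads, are in no gene count. The 9 microRNA genes listed as skeletal muscle markers had counts in both libraries. In CPM, counts per 1000000 counts over all microRNA genes of the library, their sum was 22884 in replicate 1 and 52158 in replicate 2. Most of this sum was Mir206, at 20325 CPM in replicate 1 and 48078 CPM in replicate 2, so it says little on the other markers. Of these, Mir1a-1, Mir133a-1, Mir133a-2 and Mir133b had more CPM in replicate 1, at low counts. Mir486 (889 CPM in replicate 1 and 1133 in replicate 2), Mir1a-2 (261 and 269), Mir499 and Mir208b had less there, as Mir206 did. The 6 markers of neurons, copies of Mir124a and Mir9, had no count in replicate 1 and summed to 0.440 CPM in replicate 2. All mature arms are identical among the Mir9 copies, so reads of these arms match several places and are in no gene count. Mature arms of the Mir124a copies were not compared. The low sum is therefore no measure of neuronal RNA. The smooth muscle markers had a sum of 123068 CPM in replicate 1 against 81451 CPM in replicate 2, and the endothelial marker had 81286 CPM against 129798 CPM. The part of any cell type in the values below was not tested.

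Mir193b had the most assigned reads of the 4 genes. It had 144 reads in replicate 1 and 653 in replicate 2, or 225 CPM (exact Clopper-Pearson 95% interval 190 to 265 CPM) and 287 CPM (266 to 310), a mean of 256 ± 43.8 CPM (SD, n = 2). It ranked 105 in replicate 1 and 100 in replicate 2 among all 2202 genes by CPM. This places a gene known from brown fat in the upper part of the 549 genes with any count in this muscle. In bulk tissue, fewer cells of a type and less RNA per cell cannot be told apart.

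Mir193a, its paralog with the same 3p seed, was lower in both libraries. It had 59 reads in replicate 1 and 161 in replicate 2, or 92.4 CPM (70.3 to 119) and 70.9 CPM (60.3 to 82.7), a mean of 81.6 ± 15.2 CPM (SD, n = 2). Its ranks were 152 and 164. Mir193b was 2.44-fold above Mir193a in replicate 1 (interval 1.79 to 3.36) and 4.06-fold in replicate 2 (3.41 to 4.85), so the order was the same in both and the intervals of the fold did not overlap. Together the miR-193 genes held 318 CPM in replicate 1 and 358 CPM in replicate 2, a mean of 338 ± 28.6 CPM (SD, n = 2), and Mir193b gave 70.9% (64.2 to 77.1%) and 80.2% (77.3 to 82.9%) of their counts. A read covers a whole small RNA rather than a piece of a longer transcript, so these levels were not divided by hairpin length.

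By assigned reads, the miR-365 genes were at the low end. Reads of miR-365-3p match both genes and are left out, so these counts do not show whether miR-365 is scarce in this muscle. Mir365-2 had 6 reads in replicate 1 and 14 in replicate 2, or 9.39 CPM (3.45 to 20.4) and 6.16 CPM (3.37 to 10.3), a mean of 7.78 ± 2.28 CPM (SD, n = 2). Mir365-1 had 2 and 3 reads, or 3.13 CPM (0.379 to 11.3) and 1.32 CPM (0.272 to 3.86). Those reads are at or under the 3 counts taken as the limit for a gene with no count, which are 4.70 CPM in replicate 1 and 1.32 CPM in replicate 2. Mir365-2 was 3.00-fold above Mir365-1 in replicate 1 (0.536 to 30.4) and 4.67-fold in replicate 2 (1.30 to 25.3). The difference was thus within counting error in replicate 1 and beyond it in replicate 2. The intervals take in counting error alone, because amplified reads that carry no molecular identifier may stem from the same molecule.

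**Figure D2:**
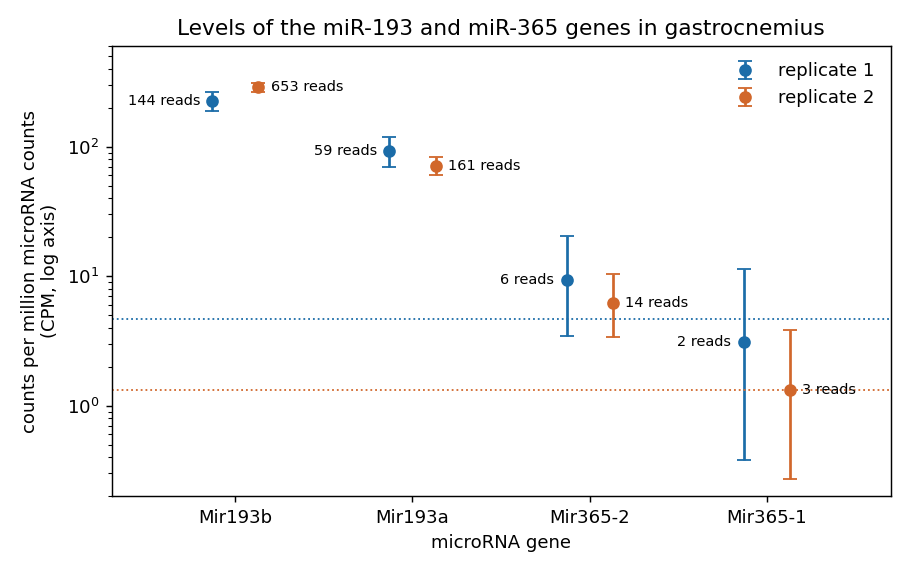
CPM of each gene on a log axis, replicate 1 in blue and replicate 2 in orange, with exact 95% intervals of counting error as bars, read counts beside the points and dotted lines at 3 counts of each library (4.70 and 1.32 CPM). The ranges over both libraries do not overlap between any pair of genes, from Mir193b at 225 to 287 CPM down to Mir365-1 at 1.32 to 3.13 CPM, but the intervals of Mir365-2 and Mir365-1 do.

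In both clusters the miR-193 gene held nearly all of the assigned reads. Mir193b gave 98.6% (95.1 to 99.8%) of the 146 reads of its cluster in replicate 1 and 99.5% (98.7 to 99.9%) of 656 in replicate 2. It was 72.0-fold (19.6 to 600.2) and 218-fold (74.2 to 1058) above Mir365-1. Mir193a gave 90.8% (81.0 to 96.5%) of the 65 reads of its cluster in replicate 1 and 92.0% (86.9 to 95.6%) of 175 in replicate 2, and was 9.83-fold (4.26 to 27.9) and 11.5-fold (6.66 to 21.5) above Mir365-2. Within each cluster the intervals of both libraries overlapped. These shares leave out reads of miR-365-3p, which match both miR-365 genes, and so are no measure of how the arms of a cluster compare.

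Between the libraries, Mir193b differed beyond counting error and the other tested members did not pass. Mir193b was lower in replicate 1, at 0.787-fold of replicate 2 (0.650 to 0.941), with an adjusted p of 0.0214 in an exact two-sided binomial test with Benjamini-Hochberg adjustment over all 311 genes with 10 or more counts. Mir193a had 1.31 times the CPM in replicate 1 (0.950 to 1.77, adjusted p = 0.174 by the same exact test), and Mir365-2 had 1.59 times (0.480 to 4.22, adjusted p = 0.619). Mir365-1, with 5 reads in all, was not tested. So 1 of the 3 tested members passed, against 40.5% of all 311 genes, a share at which a single call says nothing particular about these genes. The test compares 2 libraries of 1 group with counting error alone, not conditions.

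The call for Mir193b depended on the scaling and on the test. In the exact binomial test its adjusted p was 0.0176 with DESeq2 size factors, which kept the call. It was 0.0735 with TMM scaling and 0.101 when Mir378a was left out of the library totals. In edgeR's exact test with a common dispersion, which counts the spread between the libraries as noise, it was 1.00. Across the alternatives in which it was tested, it stayed lower in replicate 1.

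**Figure D3:**
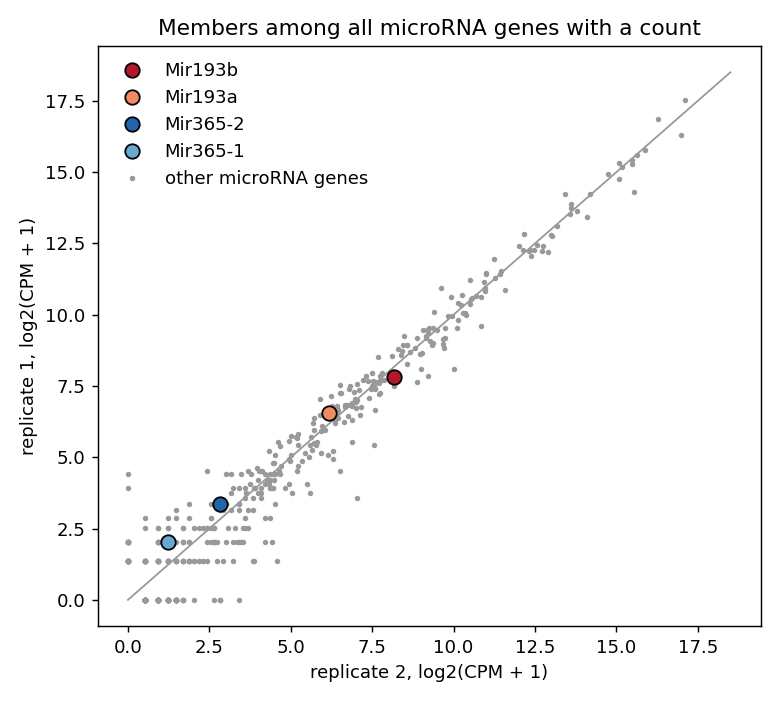
Each point is 1 of the 549 microRNA genes with a count in at least 1 library, with log2(CPM + 1) in replicate 2 across and in replicate 1 upward, members in colour and the line of equal levels in grey. Mir193b lies below the line, at 225 CPM in replicate 1 against 287 in replicate 2, and the other 3 members lie above it.

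Genes of like level in both libraries were found by the smallest distance in log2(CPM + 1) over the 2 libraries, which gives a likeness in level and little on pattern. Nearest to Mir193b were Mir484 (distance 0.11), Mir16-2 (0.13), Mir181d (0.20), Mir1a-2 (0.23) and Mir221 (0.32). Mir484 had 241 CPM in replicate 1 and 298 in replicate 2. Mir1a-2, a gene of the muscle microRNA miR-1, had 261 and 269 CPM. Its count is uncertain, since its mature arms were not compared with those of its numbered copy. Nearest to Mir193a were Mir1981 (0.14), Mir467d (0.17), Mir148b (0.22), Mir1249 (0.25) and Mir300 (0.27). For Mir365-2 the nearest were Mir326, Mir8111 and Gm23935, all at 6 and 16 reads, and then Mir106a and Mir450-1. Mir16-2 and Mir450-1 each have a mature arm identical to one of their numbered copy, so their counts are uncertain too.

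The low counts of the miR-365 genes were set beside those of other gene copies with numbered names. There were 53 such families with 138 genes, of which 30 families had a count. In 29 families at least 1 mature arm was identical in all copies and another was not, as for miR-365, and 25 of these had a count. The miR-365 genes, at a summed 12.5 CPM in replicate 1 and 7.48 CPM in replicate 2, were 19th of these 29 by mean, with a median of 33.1 CPM over the 29. The highest were the let-7f copies, at 4424 and 5404 CPM, and the miR-196a copies, at 1592 and 1827 CPM. In both of those, 1 copy gave nearly all reads, Mirlet7f-2 with 97.5% and Mir196a-2 with 99.5%, whereas Mir365-2 gave 77.7% of the miR-365 CPM. That share rests on few reads. It was 75.0% (34.9 to 96.8%) of 8 reads in replicate 1 and 82.4% (56.6 to 96.2%) of 17 in replicate 2. A difference in level between families was not tested, since reads of the identical arm are missing from each to an unknown degree.

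**Figure D4:**
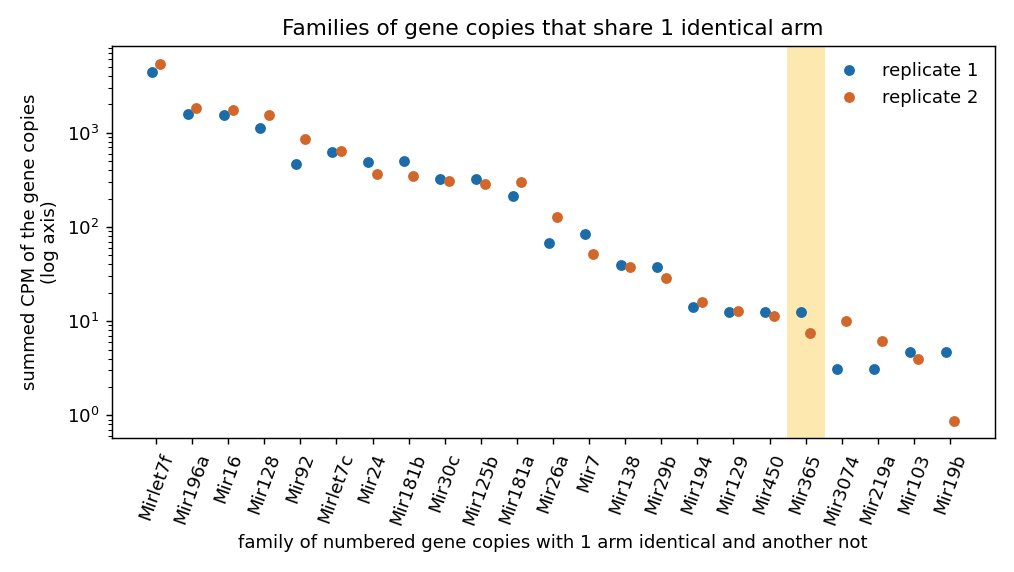
Summed CPM of the gene copies on a log axis for the 23 families with 1 identical arm and a count in both libraries, replicate 1 in blue and replicate 2 in orange, ordered by mean. The miR-365 genes, shaded, are 19th, at 12.5 and 7.48 CPM.

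Other microRNAs with a known part in the same processes were taken from lists. Of 32 genes linked to adipocyte formation or browning, 30 were tested, of which 5 were higher in replicate 1 (17.4% of all genes tested were), 6 lower (23.2% of all) and 19 did not pass. The median log2 ratio of replicate 1 over replicate 2 was -0.03 over these 30, against -0.04 over all 311 genes. Mir193b was 15th and Mir365-1 31st of the 32 by mean CPM. By mean CPM the list was led by Mir378a, Mir143, Mir26b and Mir21a. Of these, Mir26b was lower in replicate 1 (0.863-fold, 0.851 to 0.875), like Mir193b, whereas Mir378a (1.34-fold), Mir143 (1.51-fold) and Mir21a (1.75-fold) were higher there.

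Of 34 counted genes linked to myoblast differentiation, 30 were tested, of which 5 were higher in replicate 1 (17.4% of all genes tested were), 9 lower (23.2% of all) and 16 did not pass. The median log2 ratio was -0.05, against -0.04 over all 311 genes. Mir193b was 12th and Mir365-1 32nd of the 34 by mean CPM. The list was led by Mir206, the microRNA restricted to skeletal muscle, with Mir322, Mir29a and Mir27b after it. Mir206 was lower in replicate 1 (0.423-fold, 0.415 to 0.431), while Mir29a (1.59-fold, 1.54 to 1.65) and Mir27b (1.10-fold, 1.06 to 1.15) were higher there. Mir322 was at 0.957-fold, a log2 ratio of -0.06, which is smaller than the shift of 0.08 from leaving Mir378a out of the totals. The 5 genes for miR-1 and miR-133, named after their values were seen, did not pass, with ratios between 0.974 for Mir1a-2 and 2.01 for Mir133a-2. Their counts are read as uncertain, since reads that match several genes are left out and their mature arms were not compared. The part of these genes in the difference of Mir193b was not tested.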

How the data were processed

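MicroRNA sequencing libraries from 2 gastrocnemius samples of 1 group were used. The authors deposited raw read counts per microRNA gene, 1 table per library, on mm10 with GENCODE M21, per the texts deposited with the tables. Not given in the sources used here are the aligner and the counting program. Of 3 count columns without names, the second was read as the strand of the gene, since it held the larger total. All 2202 identifiers matched GENCODE M21. Unmapped, multi-mapping and no-feature reads (5.97, 75.2 and 1.62% in replicate 1, and 6.93, 74.4 and 2.48% in replicate 2) stayed out of library sizes.

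CPM and exact Clopper-Pearson intervals were computed per library. For genes whose counts summed to 10 or more, the libraries were set against each other in an exact conditional binomial test (Benjamini-Hochberg threshold 0.05), and log2 ratios used a prior count of 0.5. The step was tested on simulated counts with set fold changes and counting error alone. That run cannot show how the test acts on spread beyond counting error. Named genes are the 4 members, the 5 nearest genes of each tested member, up to 4 leading genes of each list, neighbouring genes and the leading families of gene copies. Some cell type markers were named in addition, after their values were seen. Members and lists were chosen with earlier results of these data known. One listed symbol, Mir486b, was in no count row. Sequences are from RefSeq on GRCm38.p6. Software was Python 3.11.15, pandas 2.3.3, numpy 2.4.6, scipy 1.17.1, matplotlib 3.10.9, R 4.3.3, edgeR 4.0.16 and DESeq2 1.42.0, the last for size factors only. Effects of CAST alleles on read matching were not analysed here.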

Additional observations from a re-analysis of the deposited data

How the results depend on the processing

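No paired analysis was possible because the series holds 1 group. Taking the unstranded column left every member's reads as they were and made the totals smaller, so the levels were 366 CPM for Mir193b, 117 for Mir193a and 11.1 for Mir365-2. Leaving Mir378a out of the totals gave 306 CPM for Mir193b and 98.0 for Mir193a. The other 11 recomputed levels moved by less than the SD over the 2 libraries. Both cluster shares were the same with the unstranded column, which could not change them because each member's reads are the same there. All 34 recomputed ratios kept their direction, and 31 of them also kept, where tested, their side of the threshold. Mir193b lost its call with TMM scaling (log2 ratio -0.29), without Mir378a in the totals (-0.26) and in edgeR's exact test (-0.35). That last test called 2 of 311 genes in place of 126, and 20 had an unadjusted p under 0.05. Of the 126 genes called in the main binomial test, 42.9% were higher in replicate 1. This share was 52.9% with TMM scaling, which moved the median log2 ratio by 0.06, and 55.6% without Mir378a. With 1 library left out, the levels were 225 to 287 CPM for Mir193b, 70.9 to 92.4 for Mir193a, 6.16 to 9.39 for Mir365-2 and 1.32 to 3.13 for Mir365-1, and the shares 98.6 to 99.5% for Mir193b and 90.8 to 92.0% for Mir193a. Depth limits Mir365-1 and Mir365-2, whose reads number 5 and 20 in all.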

Other observations

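On the opposite strand all 4 genes had 0 counts in both libraries, also Mir193b and Mir365-1, which lie within the antisense gene Gm15738. A count of 0 allows up to 3 counts, and reads on that strand are not part of the CPM total.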
